A study of Mus musculus with 6 samples.

Results

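The 7 genes described here encode every subunit of the NMDA receptor: Grin1, Grin2a, Grin2b, Grin2c, Grin2d, Grin3a and Grin3b. They were chosen by name, and are 7 of the 21755 protein-coding genes whose bodies were counted. In all 6 libraries, DNA ends were mapped by BLISS, which repairs the ends of breaks inside fixed nuclei, joins an adaptor to them and sequences outward from it. All libraries came from sorted forebrain neurons of CK-p25 mice after 2 weeks of induction by taking doxycycline out of the diet. In these mice a CamKII promoter confines the inducible transgene to excitatory forebrain neurons; its product, p25, activates the kinase Cdk5. The titles give 3 groups of 2 libraries, Con, Step1 and Step2. The labels do not say what sets the groups apart, and Con carries the same genotype and induction labels as the others. Nor do they tie a replicate to an animal, so the p-values reflect no more than library-to-library spread, possibly technical.

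An NMDA receptor is a glutamate-gated calcium channel built of several subunits. GluN1, from Grin1, is in every receptor. The GluN2 subunits, from Grin2a to Grin2d, bind glutamate and set how long the channel stays open, while the GluN3 subunits, from Grin3a and Grin3b, lower its calcium flow. In the forebrain, Grin2b is known as the early subunit and Grin2a as the one that joins it with age. Strong NMDA receptor activity is a known source of the calpain activity that cuts p35 into p25, and neuronal activity is known to produce DNA breaks.

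Depth ran from 1480461 to 2403238 reads per library. The 5′ end of a read stands for the break end, and levels are given as RPM, reads for every 1000000 reads of the same library, or as RPKM, which also divides by gene length in kb. They describe where ends lay, so fewer broken cells and fewer breaks per cell cannot be told apart. Over genes, replicates correlated at 0.917 (Con), 0.937 (Step1) and 0.901 (Step2), and none agreed within sampling noise (chi-square per degree of freedom 1.46 to 2.17). Because DNA and not RNA was read, marker genes cannot type the cells: bodies of 5 excitatory neuron markers had a median of 0.363 RPKM and those of 4 microglia markers 0.431.

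The reads of 4 members met at particular bases, and those bases are shown because the Grin1 one held 93 of the 225 reads of that gene. Each line below holds 101 bases of mm10 in the direction of the reads, 5′ to 3′, with the read starting at the base after the capitals. The capitals mark the 4 genome bases just before the read. The stretches are chr2:25310575-25310675 (plus strand, Grin1), chr16:9716866-9716966 (plus, Grin2a), chr6:136169215-136169315 (plus, Grin2b), chr11:115266659-115266759 (plus, Grin2c), chr7:45840489-45840589 (minus, Grin2d) and chr4:49688688-49688788 (minus, Grin3a). For each gene the position shared by the most libraries is given, and all 6 lie in introns.
Grin1: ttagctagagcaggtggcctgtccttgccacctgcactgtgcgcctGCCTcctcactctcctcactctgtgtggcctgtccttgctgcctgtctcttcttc
Grin2a: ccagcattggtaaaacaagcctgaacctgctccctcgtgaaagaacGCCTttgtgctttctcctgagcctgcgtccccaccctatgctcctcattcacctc
Grin2b: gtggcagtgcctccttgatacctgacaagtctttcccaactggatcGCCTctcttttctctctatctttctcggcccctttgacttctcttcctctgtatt
Grin2c: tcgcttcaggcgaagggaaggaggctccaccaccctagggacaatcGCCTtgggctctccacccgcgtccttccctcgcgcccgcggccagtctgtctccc
Grin2d: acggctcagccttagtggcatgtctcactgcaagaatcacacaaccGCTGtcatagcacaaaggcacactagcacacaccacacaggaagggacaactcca
Grin3a: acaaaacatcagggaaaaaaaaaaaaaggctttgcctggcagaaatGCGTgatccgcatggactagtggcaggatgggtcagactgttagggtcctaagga

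The letters GCCT precede the read at the shared positions of Grin1, Grin2a, Grin2b and Grin2c, and not at those of Grin2d and Grin3a. The Grin1 position had reads in all 6 libraries, the Grin2b one in 5, the Grin2a one in 4 and the Grin2c one in 3. The Grin2d and Grin3a positions had reads in 2 libraries each. Over the 7 genes, reads began at 4590 positions, of which 153 follow GCCT. Of the 66 positions met in at least 2 libraries, 14 follow it, and of the 9 met in at least 3 libraries, 8 do.

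The same letters recur across the genome. GCCT precedes 0.382% of genome positions, 2.39% of read positions found in 1 library, 7.23% of those found in 2 and 19.9% of those found in 3 or more. It precedes 2.58% and 3.16% of reads in the Con libraries, 2.38% and 2.53% in Step1, and 2.31% and 2.27% in Step2. The shares of Con, Step1 and Step2 do not overlap in any pairing, with Con highest and Step2 lowest. What these letters mark was not tested.

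With all reads counted, Grin1 carried the most per length of the family and Grin3b the fewest. Over all libraries Grin1 had 0.649 RPKM, against a genome average of 0.380, and stood at percentile 96.7 of gene bodies. With 1 read kept per position and strand, it had 0.439 and stood at percentile 76.1, below Grin2b (0.452) and Grin2c (0.440). With all reads, Grin2b had 0.437 RPKM, Grin2c 0.436, Grin2a 0.408, Grin3a 0.399, Grin2d 0.361 and Grin3b 0.299. From Grin2b down to Grin3a, neighbours in this order differed by less than the spread over libraries: Grin2a alone ran from 0.335 to 0.442.

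**Figure D1:**
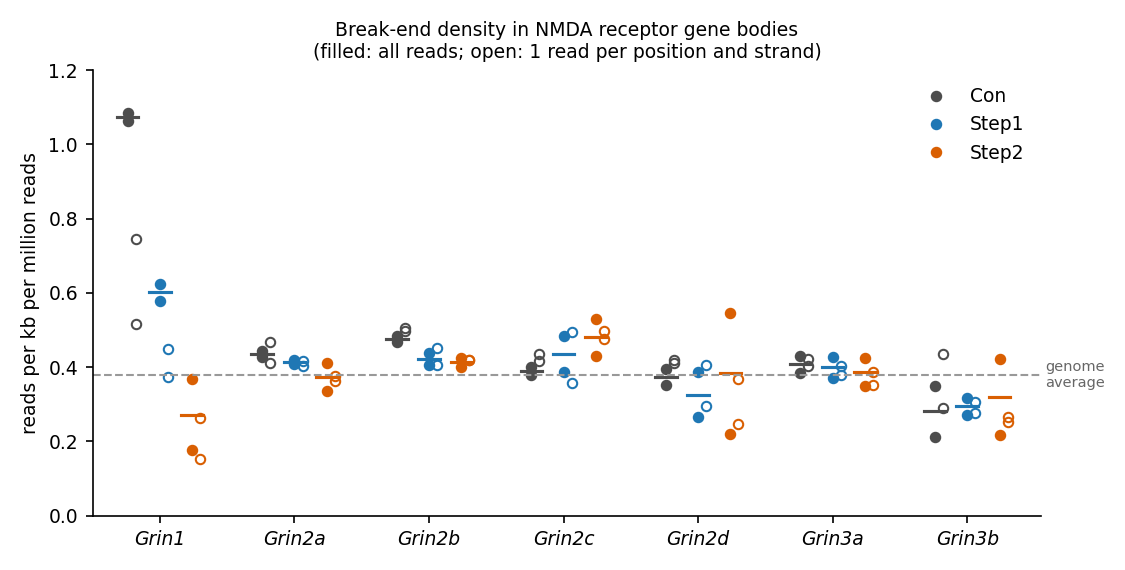
RPKM (vertical axis) in the 7 gene bodies. Filled points are libraries with all reads, bars their group means, open points the same libraries with 1 read per position and strand, and the dashed line is the genome average of 0.380; in Grin1 the filled Con, Step1 and Step2 points do not overlap.

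Grin1, the obligatory subunit, fell in Step2 and was the member with the largest difference from Con. Its body is short (chr2:25291181-25319187, minus strand, 28.0 kb). It held 67 and 65 reads in the Con libraries, 37 and 34 in Step1, and 15 and 7 in Step2. Scaled to depth, that is 30.4 and 29.8 RPM in Con, with 16.2 and 17.5 in Step1 and 10.3 and 4.94 in Step2. The 3 groups do not overlap, with Con highest and Step2 lowest. Per length, Con had 1.07 ± 0.016 RPKM (SD, n = 2), Step1 0.602 ± 0.033 and Step2 0.272 ± 0.135. So with all reads Grin1 stood above the genome average in Con and Step1 and below it in Step2. With 1 read per position and strand, Step1 replicate 1 (0.372 RPKM) also lay below that average.

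In limma, Grin1 was lower in Step2 than in Con by a log2 fold change of -2.01 ± 0.42 (SE), with an adjusted p of 0.0250 over 13811 genes. It was 1 of 6 members called, where 0.0941% of all genes tested were called and 0.0796% were called lower. Step1 against Con gave -0.83 ± 0.26 (adjusted p 0.394) and Step2 against Step1 gave -1.18 ± 0.44 (adjusted p 0.999), so neither passed. The latter was -1.69 without Step2 replicate 1 and -0.68 without Step2 replicate 2. No member was called in those comparisons, where 0.123% and 0.0434% of genes were (0.101% and 0.0362% lower). The Step2 call ended without Con replicate 2 (-2.02, adjusted p 0.0529), without Step2 replicate 1 (-2.52, adjusted p 0.486) and without Step2 replicate 2 (-1.51, adjusted p 0.666).

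The stretches beside Grin1 did not follow the order of its body. The 100 kb on each side together held 64.4 and 84.7 RPM in Con, against 76.7 and 71.6 in Step1 and 85.7 and 81.1 in Step2. Con overlaps both other groups here, and Step2 lies above Step1. The density of the Grin1 body was 3.37 and 2.51 times that of its own flanks in the Con libraries, 1.51 and 1.75 in Step1, and 0.857 and 0.435 times in Step2. These ratios include the most-read base of Grin1, described below. With that base left out, Con replicate 2 had 10.5 RPM in the body, between the 2 Step1 libraries (10.1 and 11.8). Con replicate 1 was still highest at 21.3 RPM, and both Step2 libraries were lowest (7.54 and 3.53). Ratios to the flanks were not calculated without that base, so a body-wide excess over the flanks is not shown.

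A single base of Grin1 held 93 of its 225 reads (41.3%). This is position 25310625 of chromosome 2, the one printed above, on the plus strand and 8562 bases from the gene start in intron 3. Among the 9309 genes with at least 100 reads, 12 had a larger share at 1 position, and the median share was 2.63%. Its reads came to 20 and 42 in Con, with 14 and 11 in Step1 and 4 and 2 in Step2. All libraries had it, with Con highest and Step2 lowest. It made up 29.9% (95% Wilson interval 20.2% to 41.7%) of Grin1 reads in Con replicate 1 and 64.6% (52.5% to 75.1%) in Con replicate 2; these intervals cover counting error only.

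Both sequencing runs held the position, and nearly all of its reads mapped well. The reads divided into 45 and 48 between the 2 runs, and 89 of the 93 had the highest mapping quality, 42. Within 50 bases no read lay on the opposite strand. Without it, 73 Grin1 reads were on the plus strand and 59 on the minus strand.

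**Figure D2:**
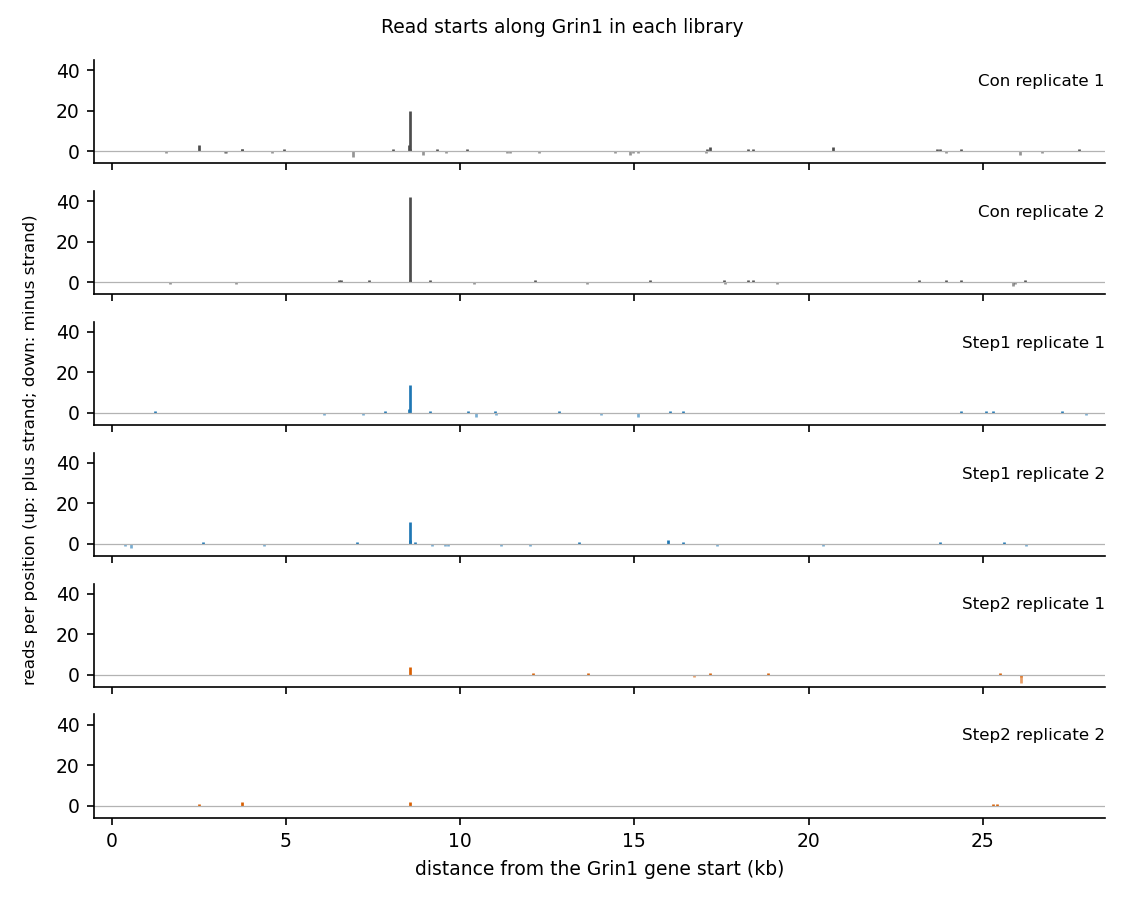
Read starts along Grin1 by distance from the gene start (kb), 1 panel per library; line height is reads per position, upward for the plus strand and downward for the minus strand. The tall line near 8.56 kb has 20 and 42 reads in Con, against 14 and 11 in Step1 and 4 and 2 in Step2.

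Of the 225 Grin1 reads, 109 (48.4%) follow GCCT, the 93 above included. The share was 6.74% in Grin2c (6 of 89 reads), 5.09% in Grin2a, 3.82% in Grin2b, 3.13% in Grin2d (6 of 192), 1.89% in Grin3a and 0 of 22 reads in Grin3b. The Grin1 reads that do not follow GCCT numbered 39 and 21 in the Con libraries, 19 and 22 in Step1, and 10 and 5 in Step2. Scaled to the other reads of each library, they came to 18.2 and 9.93 RPM in Con, with 8.53 and 11.6 in Step1 and 7.02 and 3.61 in Step2. Without reads after GCCT, Con and Step1 overlap, and Step2 still lies below both. Counting each position and strand once, with reads after GCCT kept, left every group of Grin1 apart, in the order seen with all reads. The lower Con library, replicate 2 (14.5 RPM), then exceeded the higher Step1 library, replicate 2 (12.5). The lower Step1 library, replicate 1 (10.4 RPM), exceeded the higher Step2 library, replicate 1 (7.36).

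With reads after GCCT left out, the log2 fold change of Grin1 in Step2 against Con was -1.33 ± 0.57 and the adjusted p 0.655. With 1 read per position and strand it was -1.55 ± 0.47 (adjusted p 0.204), and without the most-read position -1.45 ± 0.50 (adjusted p 0.378). The difference kept its sign in all 26 alternatives, from -2.56 to -1.22. The call held in 14 of them, with adjusted p values from 0.000182 to 0.727 over the 26. Alternatives that leave out reads after GCCT or CCT were chosen after the data were seen.

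**Figure D3:**
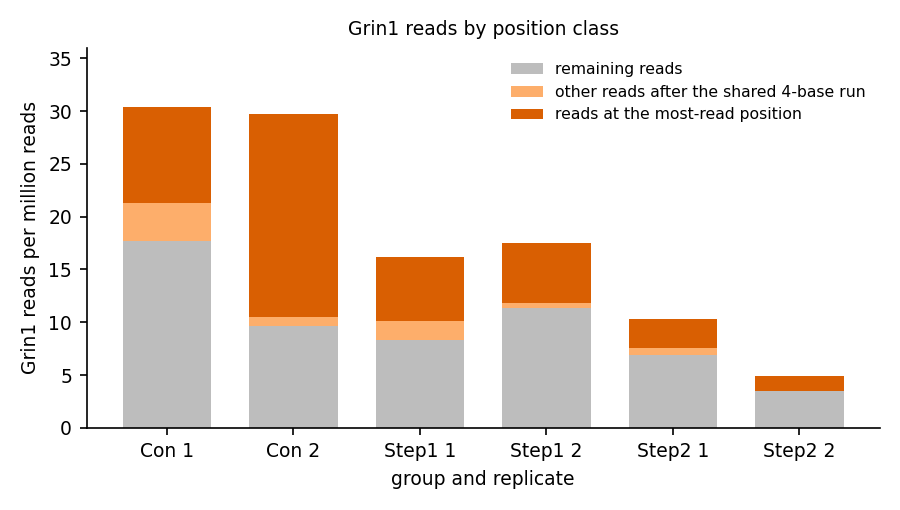
Grin1 level (RPM) in each library (stacked bars), divided into reads at the most-read position, other reads after the shared 4-base run, and the remaining reads. The remaining part is 17.7 and 9.62 in Con, against 8.33 and 11.3 in Step1 and 6.85 and 3.53 in Step2, so Con and Step1 overlap in it and Step2 is lowest.

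Reads from Grin1 and from Grin1os, the antisense transcript over part of it, cannot be told apart on this DNA assay. The shared stretch held 10 and 7 reads in the Con libraries, 5 and 4 in Step1, and 6 and 2 in Step2. In the first of 3 equal parts of the gene, counted from its start, there were 41 and 49 reads in Con, with 21 and 21 in Step1 and 4 and 5 in Step2. The first part holds the most-read position, and without that base the counts were 21 and 7, 7 and 10, and 0 and 3. The middle part held 16 and 8, 11 and 9, and 4 and 0 reads, and the last part 10 and 8, 5 and 4, and 7 and 2. Differences between parts were not tested.

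Grin2a and Grin2b, the main forebrain GluN2 genes, are long and had most of the family's reads. Neither was called in any comparison. Grin2b (chr6:135713233-136173511, minus strand, 460 kb) had 223 and 216 RPM in Con, against 187 and 202 in Step1 and 196 and 184 in Step2. Both other groups lie below Con and overlap each other. The log2 fold change was -0.18 ± 0.08 in Step1 (adjusted p 0.682) and -0.21 ± 0.10 in Step2 (adjusted p 0.617); the Step1 value was -0.12 without Step1 replicate 1. With reads after GCCT left out, its levels were 219 and 212 in the Con libraries, 186 and 198 in Step1, and 194 and 183 in Step2, so Con still stood apart. With 1 read per position and strand, Con had 229 and 233 RPM, Step1 187 and 208, and Step2 193 and 193. The log2 fold changes against Con were then -0.24 ± 0.07 in Step1 (adjusted p 0.246) and -0.26 ± 0.09 in Step2 (adjusted p 0.293).

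Grin2a (chr16:9567898-9995560, minus strand, 428 kb) had 183 and 189 RPM in Con, with 175 and 179 in Step1 and 143 and 176 in Step2. Con was above both groups by a margin smaller than the gap between the Step2 libraries. The log2 fold change was -0.08 ± 0.09 in Step1 (adjusted p 0.899) and -0.23 ± 0.11 in Step2 (adjusted p 0.624). The Step2 value was -0.08 without Step2 replicate 1 and -0.38 without Step2 replicate 2. With reads after GCCT left out, Con had 176 and 179, Step1 170 and 176, and Step2 143 and 178. Con then overlapped both other groups. With 1 read per position and strand, Con had 176 and 200 RPM, Step1 178 and 172, and Step2 155 and 161. In that count Con and Step1 overlapped and Step2 lay below both. The log2 fold change in Step2 against Con was then -0.24 ± 0.10 (adjusted p 0.444).

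No single base dominated these long genes. The most-read position of Grin2a, 9606141, had 18 of 2022 reads, all in Step2 replicate 2. The most-read position of Grin2b, 136037913, had 9 of 2328 reads, all in Con replicate 1. The position of Grin2a printed above, 9716916, had 4 and 8 reads in Con, against 0 and 2 in Step1 and 1 and 0 in Step2. The position of Grin2b printed above had 1 read in each of 5 libraries. Positions met in at least 2 libraries were 1.48% of those of Grin2a and 1.24% of those of Grin2b, against 1.24% over all gene bodies and 3.74% in Grin1.

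Along the long genes, ends were spread over the whole body. In bins of 20 kb, the group means of Grin2a ran from 0.273 to 0.831 RPKM in Con and from 0.139 to 0.753 in Step2. The bin with the highest Con mean, 20 to 40 kb from the start of Grin2a, held 45 and 28 reads in the Con libraries, 25 and 33 in Step1, and 9 and 10 in Step2. It also holds the position at 9972220, where 13 of those reads in Con replicate 1 began. This bin was singled out after its values were seen and gets no test.

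**Figure D4:**
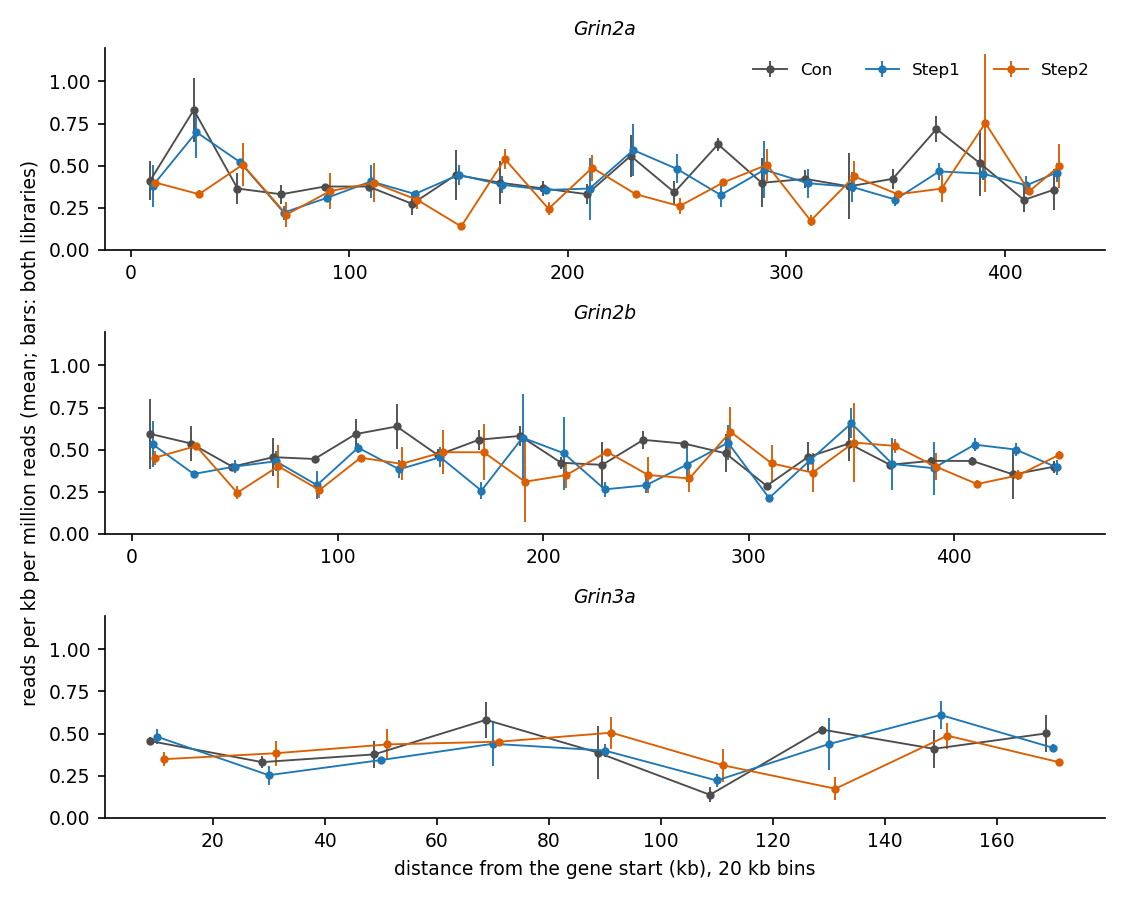
RPKM in 20 kb bins from the gene start (kb) in Grin2a, Grin2b and Grin3a; points are group means and vertical lines join the 2 libraries of a group. Levels vary by bin in all groups; the highest Con bin of Grin2a reaches 0.831, and the 1 with the highest Step2 mean, 0.753, holds the position read 18 times in Step2 replicate 2.

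Grin2c and Grin2d, the GluN2 genes of mainly cerebellar and of early or interneuron use, had few reads. Grin2c (chr11:115249169-115267243, minus strand) had 16 and 15 reads in Con, with 16 and 17 in Step1 and 14 and 11 in Step2. Scaled to depth, that is 7.26 and 6.87 RPM in Con, with 7.02 and 8.76 in Step1 and 9.60 and 7.76 in Step2. Step2 lay above Con, and Step1 overlapped both. The log2 fold change of Grin2c in Step2 against Con was 0.30 ± 0.46 (adjusted p 0.907), with an interval from -0.62 to 1.22. Counts of this size cannot tell apart differences within that interval, which includes no difference. Its most-read base, 534 bases from the gene start and printed above, had 5 of 89 reads.

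Grin2d (chr7:45831883-45878378, minus strand) had 36 and 40 reads in Con, against 41 and 24 in Step1 and 15 and 36 in Step2. In RPM the 2 Step2 libraries, at 10.3 and 25.4, span the 12.4 to 18.3 of the other groups. With 1 read per position and strand, Con had 19.2 and 19.5 RPM, Step1 18.9 and 13.7, and Step2 11.4 and 17.2. Both other groups then lay below Con and overlapped each other. In Step2 replicate 2, 9 of the 36 reads began at 1 base, 45861669, which no other library had. With all reads, the log2 fold change in Step2 against Con was -0.09 ± 0.35 (adjusted p 0.969). It was 0.56 without Step2 replicate 1 and -0.72 without Step2 replicate 2. With 1 read per position and strand it was -0.45 ± 0.30 (adjusted p 0.740). Part of Grin2d lies over Kdelr1, which encodes a receptor that returns proteins to the endoplasmic reticulum, and 13 of its 192 reads fall in both.

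Grin3a and Grin3b, the GluN3 genes, showed no called difference either. Grin3a (chr4:49661611-49845744, minus strand, 184 kb) had 79.4 and 71.0 RPM in the Con libraries, 78.9 and 68.5 in Step1, and 64.4 and 78.3 in Step2. With all reads the groups overlap in every pairing. With 1 read per position and strand, Con had 77.8 and 74.2 RPM, Step1 74.5 and 69.9, and Step2 64.6 and 71.3. In that count Step2 lay below Con, and Step1 overlapped both. The log2 fold change in Step2 against Con was then -0.16 ± 0.15 (adjusted p 0.819). With all reads, that of Grin3a was -0.02 ± 0.15 in Step1 (adjusted p 0.982) and -0.08 ± 0.17 in Step2 (adjusted p 0.940). The Step2 interval, from -0.41 to 0.25, does not reach the size of the Grin1 difference.

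Grin3b (chr10:79970715-79977190, plus strand, 6.48 kb) had 5 and 3 reads in Con, with 4 and 4 in Step1 and 4 and 2 in Step2. It did not reach 10 reads in at least 2 libraries and was left out of the test. Tmem259 lies on the other strand over part of it, and 13 of its 22 reads fall in both. At this depth no difference was detectable.

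**Figure D5:**
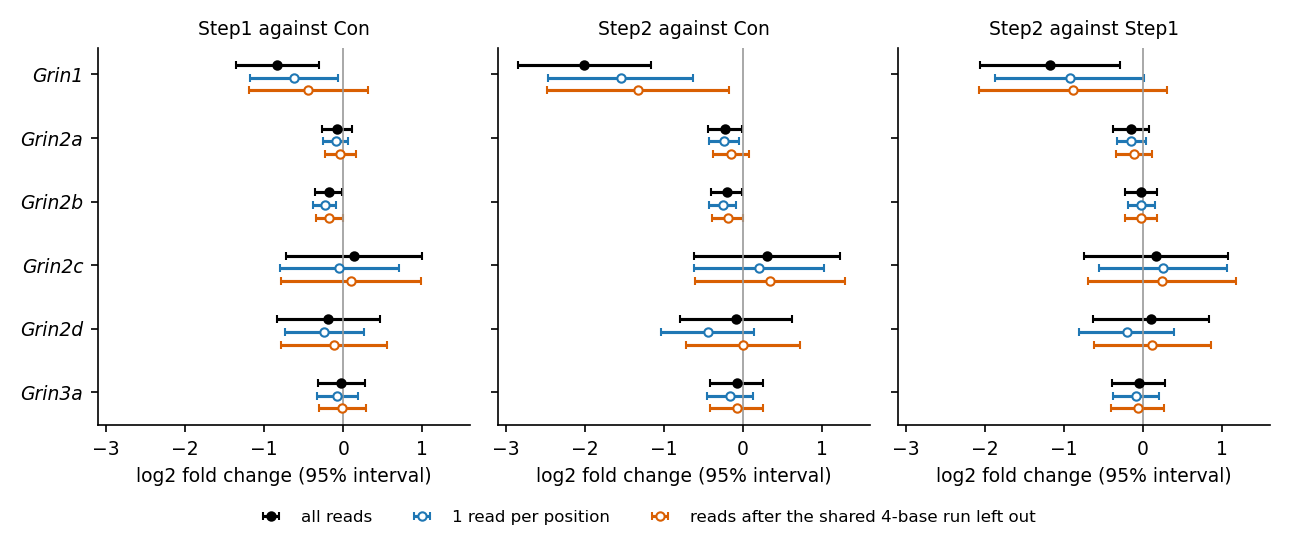
Log2 fold changes (points) with 95% intervals of limma (lines) for the 6 members tested, in 3 comparisons. Black is all reads, blue 1 read per position and strand, orange reads after the shared 4-base run left out. Grin1 in Step2 against Con moves from -2.01 to -1.55 and -1.33, while the intervals of Grin2a, Grin2b and Grin3a are narrower. With black and blue, the Grin2b intervals against Con and the Grin2a interval in Step2 against Con lie below 0. These intervals are not adjusted for the number of genes, and neither gene was called.

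Counted together, 3 of the 6 members tested did not overlap between Step1 and Con, 4 between Step2 and Con, and 1 between Step2 and Step1. Of the 4, Grin2c was higher in Step2, and Grin1, Grin2a and Grin2b were lower. Over all genes the shares that did not overlap were 36.7%, 36.9% and 34%, and no more is read from counts over 6 members. The median log2 fold change of the members was -0.13 in Step1 and -0.15 in Step2 against Con, beside -0.04 over all genes in both. At an unadjusted p under 0.05, limma had 2, 3 and 1 members in the 3 comparisons, where 7.08%, 7.77% and 3.42% of genes passed.

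All 7 gene bodies together held 0.0542% and 0.0532% of library reads in Con, against 0.0483% and 0.0490% in Step1 and 0.0437% and 0.0478% in Step2. Con lies above both other groups, and Step1 above Step2. With reads after GCCT left out, Step2 replicate 2 (0.04785%) was above Step1 replicate 2 (0.04782%), so those groups overlap, as they did without reads after CCT. In sequencing run 1 Con (from 0.0505%) and Step1 (to 0.0505%) overlap. Step1 replicate 1 (0.0437%) was also below both Step2 libraries (0.0449% and 0.0479%) in that run, so Step1 and Step2 overlap too. The group means were 0.0537% ± 0.00071 (SD, n = 2), 0.0487% ± 0.00050 and 0.0457% ± 0.0029. The exact two-sided permutation test gave p = 0.33 for both groups against Con, the smallest p that 2 libraries against 2 allow.

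Of 48 genes that work with the receptor, 43 were tested. In Step1 against Con 1 was called, lower, and 0 in the other comparisons, where limma called 0.123% (Step1 against Con), 0.0941% (Step2 against Con) and 0.0434% (Step2 against Step1) of all genes. At an unadjusted p under 0.05, limma had 8, 9 and 2 of the 43, beside 7.08%, 7.77% and 3.42% of all genes. These shares were not matched for read number. In Step1 against Con the SE was 0.63 for the partner with 52 reads and 0.03 for the one with 9620. The log2 fold change was below 0 for 37 of 43 in Step1 and 32 of 43 in Step2 against Con, where 54.7% and 54% of all genes were; in Step2 against Step1 it was 24 of 43, beside 50.2%. The medians were -0.13 and -0.17, beside -0.04 over all genes. Both comparisons use the same Con libraries. Cdk5 and its activators Cdk5r1 and Cdk5r2 had too few reads to be tested.

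The called gene was Dlg2, which encodes PSD-93, a postsynaptic scaffold that binds GluN2 tails. It had 810 RPM in Step1 and 895 in Con, a log2 fold change of -0.15 ± 0.03 (adjusted p 0.0245). The call was lost without Con replicate 2 (adjusted p 0.171), without Step1 replicate 1 (-0.10, adjusted p 0.983), and without either Step2 library (adjusted p 0.0917 and 0.0974). In Step2 it had 795 RPM, -0.17 ± 0.04 against Con (adjusted p 0.0534).

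The most-read partner in each other role did not pass. Ppp3ca, a catalytic subunit of the calcium-triggered phosphatase calcineurin, had -0.27 ± 0.11 in Step1 and -0.41 ± 0.13 in Step2 against Con. Kalrn, a Rac activator of dendritic spines, had -0.34 ± 0.08 and -0.30 ± 0.09. Nlgn1, a synaptic adhesion protein that holds NMDA receptors at the synapse, had -0.23 ± 0.07 and -0.28 ± 0.08. Fyn, a kinase that phosphorylates GluN2B, had -0.21 ± 0.14 and -0.02 ± 0.15. Slc1a2, the main glial glutamate transporter, had -0.14 ± 0.16 and -0.21 ± 0.18. Con replicates moved these values both ways. Without Con replicate 1, Nlgn1 (-0.38, adjusted p 0.000208) and Kalrn (-0.47, adjusted p 0.000531) were called in Step1, and Nlgn1 (-0.43), Kalrn (-0.43), Ppp3ca (-0.52) and Dlg2 (-0.17) in Step2. Without Con replicate 2 none was called: Nlgn1 was -0.080 in Step1 and -0.13 in Step2, Kalrn -0.21 and -0.17, and Ppp3ca -0.16 and -0.30. Leaving out each library, Fyn ranged from -0.33 to -0.09 in Step1 and Slc1a2 from -0.22 to -0.05 in Step1 and from -0.39 to -0.04 in Step2.

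For the 5 members with a mean of at least 20 reads per library (Grin2c and Grin3b had fewer), the genes whose levels followed them most closely over the 6 libraries were found by Pearson correlation of log2 RPM among 8259 genes. The points share library depth and composition, and no p is given. High values were common: 154 genes exceeded 0.9 with Grin1, 141 with Grin2a, 95 with Grin2b, 69 with Grin2d and 54 with Grin3a. For Grin1 the closest were Nedd4, a ubiquitin ligase (0.994), Tbc1d9 (0.991) and Tnfsf11, the cytokine RANKL (0.990). Their range was smaller: Nedd4 went from 40.6 and 41.0 RPM in Con to 32.6 and 26.5 in Step2. For Grin2a they were Dgkb, Gramd1b and Dexi, for Grin2b Ext1, Rab18 and Bche, for Grin2d Ryr3, Mark2 and Slc35f1, and for Grin3a Zbbx, Ubap2 and Mindy3, with correlations from 0.970 to 0.994. No other member is among them.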

How the data were processed

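Members and gene lists were picked with earlier results of these data known. Per the labels' protocols, the authors removed PCR duplicates by molecular identifier, aligned single-end reads to mm10 with Bowtie2, and converted the alignments using SAMtools and bedtools, whose versions the sources used here do not give. A line of the deposited files holds the interval, strand and score of a read; by its range (11 to 42) that score is a mapping quality, with lower values already removed.

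Ends were counted in GENCODE vM21 gene bodies, with all reads and with 1 per position and strand. Scaling used reads on chromosomes 1 to 19 and X, leaving out 26 windows of 10 kb that exceeded 20 times the median window, which gave sizes from 1417749 to 2280767. Genes reaching 10 reads in 2 or more libraries entered a limma 3.58.1 voom fit of all 6 libraries (R 4.3.3; two-sided; Benjamini-Hochberg; threshold 0.05), which was tested on simulated data. All 7 members are named, and of 48 partners those called and the most read per role. Alternatives changed scaling, filter, read set, gene bounds, model, block, GC (smooth of span 0.3) and libraries. Sequences come from GRCm38.p6. Intervals of shares are 95% Wilson intervals.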

Additional observations from a re-analysis of the deposited data

How the results depend on the processing

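The Grin1 call in Step2 against Con went from 1 to 0 members called with trimmed mean of M values scaling (adjusted p 0.0556), no count filter (0.0725), 1 read per position, without the most-read position, in sequencing run 1 (-2.56, 0.727) or run 2 (-1.86, 0.222) alone, in a fit of only those 2 groups (0.0717), and with reads after GCCT (-1.33, 0.655) or CCT (-1.22, 0.722) left out; leaving out each library gave 0 to 1 called. No member was called in Step1 against Con or Step2 against Step1 under any of the 26 alternatives, and the share of reads in the 7 genes kept the order of its group means under all 8 of its own. Fewer reads were tested in the single runs; for the other settings the cause was not tested.

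Replicate numbers did not pair the libraries (correlations of deviations 0.03, 0.01 and -0.01); with the replicate block Grin1 kept its call, the genes called rose from 13 to 43 in Step2 and from 17 to 38 in Step1 against Con, and partners called from 1 to 2 in Step1 and from 0 to 2 in Step2. Genes called in Step2 against Con otherwise ranged from 1 (without Step2 replicate 1) to 106 (without Con replicate 1), and in Step1 against Con from 2 (without Con replicate 2) to 148 (without Con replicate 1).

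In Step1 against Con, partners called were 0 with both other scalings, the stricter filter, either run, GCCT or CCT left out, limma-trend, the GC smooth and the 2-group fit; 2 with 1 read per position, without the most-read position, without the first 1 kb, without piled-up windows and with quality weights; 3 at mapping quality 42; and 0 to 4 leaving out each library. In Step2 against Con, 1 was called without the most-read position, at mapping quality 42, without the first 1 kb, with 5 kb added, without piled-up windows and with quality weights, and 0 to 5 leaving out each library.

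Small differences that were never called turned sign. In Step1 against Con, Grin3a was 0.016 with either scaling, 0.026 and 0.029 at mapping quality 30 and 42, 0.0017 in run 2, 0.012 with the GC smooth, and -0.13 to 0.071 leaving out each library. Grin2c was -0.050 with 1 read per position, -0.24 with 5 kb added, -0.20 without CCT reads, and -0.011 to 0.31 leaving out each library; Grin2a was 0.032 in run 1 and 0.0035 without CCT reads; Grin2d ranged from -0.47 to 0.054 leaving out each library; Slc1a2 was 0.088 in run 1 and 0.040 without CCT reads. In Step2 against Con, Grin2d was 0.033 with 5 kb added and -0.72 to 0.56 leaving out each library, Grin2c -0.43 in run 2, Grin3a -0.22 to 0.062 leaving out each library, Slc1a2 0.17 in run 1, and Fyn 0.023 and 0.015 with median-of-ratios and trimmed mean scaling, 0.057 in run 1, 0.032 without GCCT reads and -0.14 to 0.093 leaving out each library. In Step2 against Step1, Grin2d was -0.21 with 1 read per position, -0.10 without the most-read position, -0.023 without CCT reads and -0.53 to 0.74 leaving out each library; Grin2b was 0.019 at mapping quality 42, 0.10 in run 1 and -0.086 to 0.026 leaving out each library; Grin3a was 0.0049 in run 1, 0.0088 without CCT reads and -0.20 to 0.085 leaving out each library; Grin2c was -0.52 in run 2 and -0.0028 to 0.31 leaving out each library. Depth limits the members with few reads, and left Grin3b untested.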
